A study of Homo sapiens and Mus musculus with 15 samples.

Results

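Ccl11-positive fibroblasts are fibroblasts from the back of the mouse eye in which the chemokine gene Ccl11 (ENSMUSG00000020676) was read from at least 2 RNA molecules. They were chosen by measured values. Each cell had at least 200 genes, at most 10% of its unique molecular identifiers (UMIs, 1 per captured RNA molecule) from mitochondrial genes and no UMI of the hemoglobin genes Hbb-bt, Hba-a2, Hbb-bs and Hba-a1. Col1a1, Col1a2, Dcn and Lum together made up at least 0.3% of its UMIs, and Mitf, Rlbp1, Rpe65, Trpm3, Ttr and Tyr, genes of the retinal pigment epithelium (RPE) and its neighbours, under 3%. It had no UMI of Ptprc or Cldn5, at least 2 UMIs of Ccl11 and at most 2 UMIs of the scleral genes Comp, Fmod, Col12a1 and Itgbl1 together. A total of 1492 of 30865 cells met the rule, 1050 from a 24-month library and 442 from a 3-month library.

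Ccl11 encodes eotaxin-1, a secreted chemokine that draws eosinophils through the receptor Ccr3. Fibroblasts are a known source of eotaxin, of the monocyte chemokines Ccl2 and Ccl7, which act through Ccr2, and of Cxcl10, an interferon-induced chemokine that draws T cells through Cxcr3. In the eye, fibroblasts fill the choroid, the vascular layer behind the RPE, and build the sclera, the fibrous coat around it.

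The scRNA-seq data hold 1 library of C57BL/6J mice aged 24 months and 1 of C57BL/6J mice aged 3 months, both made from dissociated RPE tissue of the eye. No treatment or genetic change is named for either age, and the number of animals behind each library is not given in the sources used here. The 3-month sample also carries the condition label of an old sample, and was placed by its age and title. With 1 library per age, a difference between ages cannot be told apart from a difference between the libraries, no test was made, and all intervals are 95% intervals that cover counting error only.

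After filtering, 15198 cells at 24 months had a median of 3699 UMIs and 15667 cells at 3 months had a median of 4586. The Ccl11-positive fibroblasts had medians of 4149.5 UMIs and 1863.5 genes at 24 months and 5176.5 UMIs and 2200 genes at 3 months. The libraries shared 381 barcodes. No barcode belonged to a Ccl11-positive fibroblast in both, and 15 Ccl11-positive fibroblasts at 24 months and 13 at 3 months had a barcode that was also used in the other library. Scrublet called 1.81% of the Ccl11-positive fibroblasts at 24 months and 2.94% at 3 months as doublets, and these were kept.

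The cells were set against Ccl11-zero fibroblasts, which met the same rule but had no UMI of Ccl11 (3425 cells at 24 months and 6362 at 3 months). Levels are UMIs of a gene per 1000000 UMIs of all cells of a group (CPM). Genes of fibroblasts that the rule did not use were present in the Ccl11-positive cells. The 16 genes of that list summed to 13177 CPM in Ccl11-positive fibroblasts at 24 months and 14684 CPM at 3 months, against 984 and 1088 CPM in RPE cells of the same libraries. Gsn, the actin-severing protein gelsolin, was found in 97.5% of the Ccl11-positive fibroblasts at 24 months.

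Of the 3 other genes that mark the cells by their working name of inflamed fibroblasts, only Cxcl10 was higher in them than in Ccl11-zero fibroblasts past 1.5-fold in both libraries. Cxcl10 (ENSMUSG00000034855) stood at 1793 CPM in Ccl11-positive and 1046 CPM in Ccl11-zero fibroblasts at 24 months, a log2 ratio of 0.78 (0.74 to 0.82). At 3 months it stood at 1285 CPM in Ccl11-positive and 550 CPM in Ccl11-zero fibroblasts, a log2 ratio of 1.22 (1.17 to 1.28). Fibroblasts within the scleral limit with at most 1 Ccl11 UMI and at least 2 of Alkal2 and Coch came closer, mainly at 24 months. Their Cxcl10 level was 1543 CPM at 24 months, in 52.2% of cells, and 650 CPM at 3 months, in 27.0%. Serpina3n (ENSMUSG00000021091), a secreted serine protease inhibitor of the acute phase, was lower in Ccl11-positive fibroblasts at 24 months, with 237 CPM against 410 CPM in Ccl11-zero fibroblasts. Its log2 ratio was -0.79 (-0.89 to -0.70) at 24 months and -0.070 (-0.34 to 0.18) at 3 months, where it stood at 55.3 CPM in Ccl11-positive and 58.1 CPM in Ccl11-zero fibroblasts.

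C4b (ENSMUSG00000073418), complement component C4, had log2 ratios of -0.095 (-0.23 to 0.042) at 24 months and 0.44 (0.077 to 0.79) at 3 months. Serpina3n was highest in scleral-type fibroblasts, those with at least 3 UMIs of the scleral genes and at most 1 of Ccl11, with 711 CPM at 24 months and 92.8 CPM at 3 months. Serpina3n and C4b therefore did not mark the cells, which are called here by their rule.

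**Figure D1:**
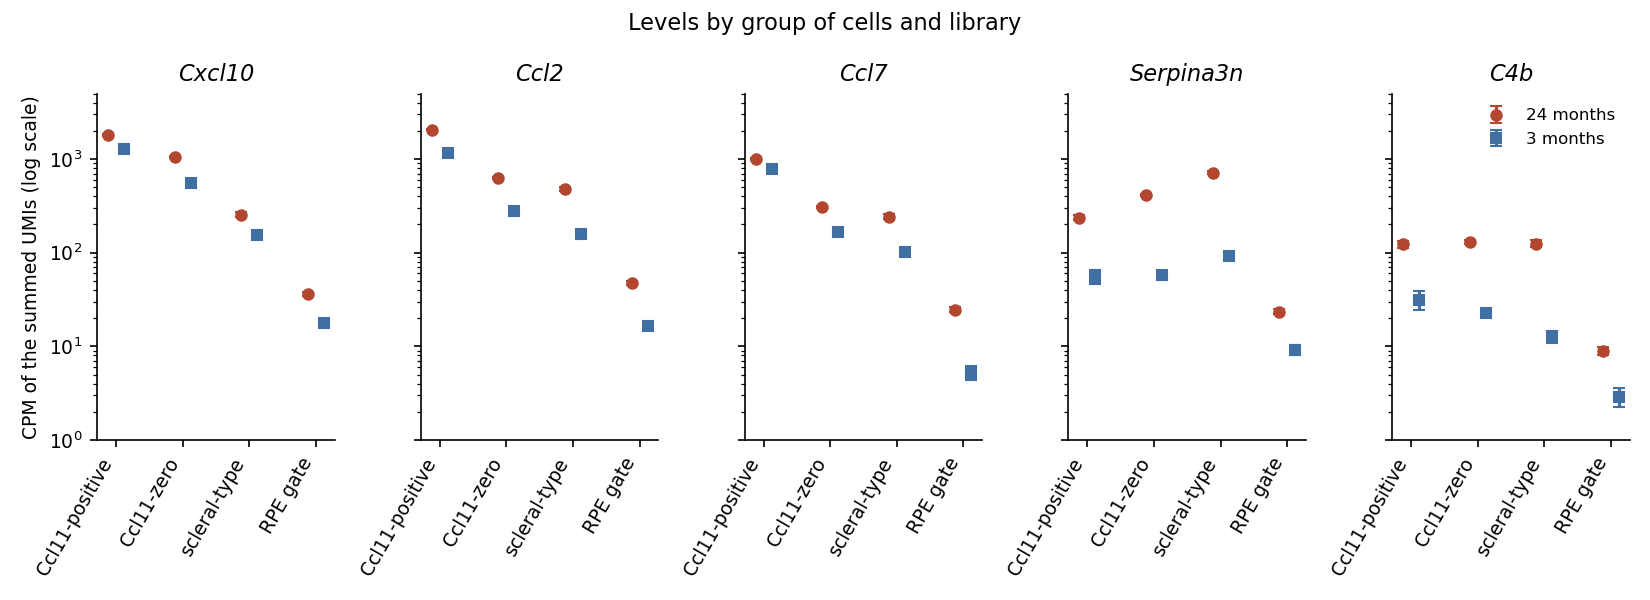
Levels of Cxcl10, Ccl2, Ccl7, Serpina3n and C4b in CPM on a log axis, in Ccl11-positive, Ccl11-zero and scleral-type fibroblasts and in RPE cells, with 24 months as circles and 3 months as squares and bars for 95% counting intervals. Of the groups drawn, Cxcl10, Ccl2 and Ccl7 were highest in the Ccl11-positive cells in both libraries. Serpina3n was highest in scleral-type cells (711 CPM at 24 months and 92.8 CPM at 3 months).

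Ccl11-positive cells took a larger share of the fibroblasts at 24 months. They were 1050 of 4761 fibroblasts with at most 2 scleral UMIs at 24 months, or 22.1% (20.9 to 23.3), and 442 of 7053 at 3 months, or 6.27% (5.71 to 6.86). The ratio of the shares was 3.52 (3.17 to 3.91). Since the cells at 3 months were deeper, cells were also thinned to 2000 UMIs, and shallower cells were left out. Among the fibroblasts that met the limit on scleral genes by their full counts, 18.4% of 4160 at 24 months and 4.56% of 6212 at 3 months then had at least 2 Ccl11 UMIs, a ratio of 4.04 (3.55 to 4.61). With the limit applied to the thinned counts, which lets in cells with more than 2 scleral UMIs, the shares were 17.1% of 4636 at 24 months and 3.88% of 7587 at 3 months, a ratio of 4.41 (3.88 to 5.01).

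The higher share at 24 months was also found within groups of fibroblasts. Among fibroblasts with at least 2 UMIs of Alkal2 and Coch together, called choroidal-type here, 27.3% at 24 months and 8.25% at 3 months were Ccl11-positive. Among the fibroblasts with fewer of these UMIs, the shares were 20.1% at 24 months and 5.00% at 3 months. The ratios of these shares were 3.31 (2.84 to 3.86) and 4.03 (3.48 to 4.66). In all gated fibroblasts together, with no threshold on Ccl11 or on the scleral genes, Ccl11 stood at 644 CPM at 24 months and 112 CPM at 3 months, a log2 ratio of 2.52 (2.48 to 2.57).

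**Figure D2:**
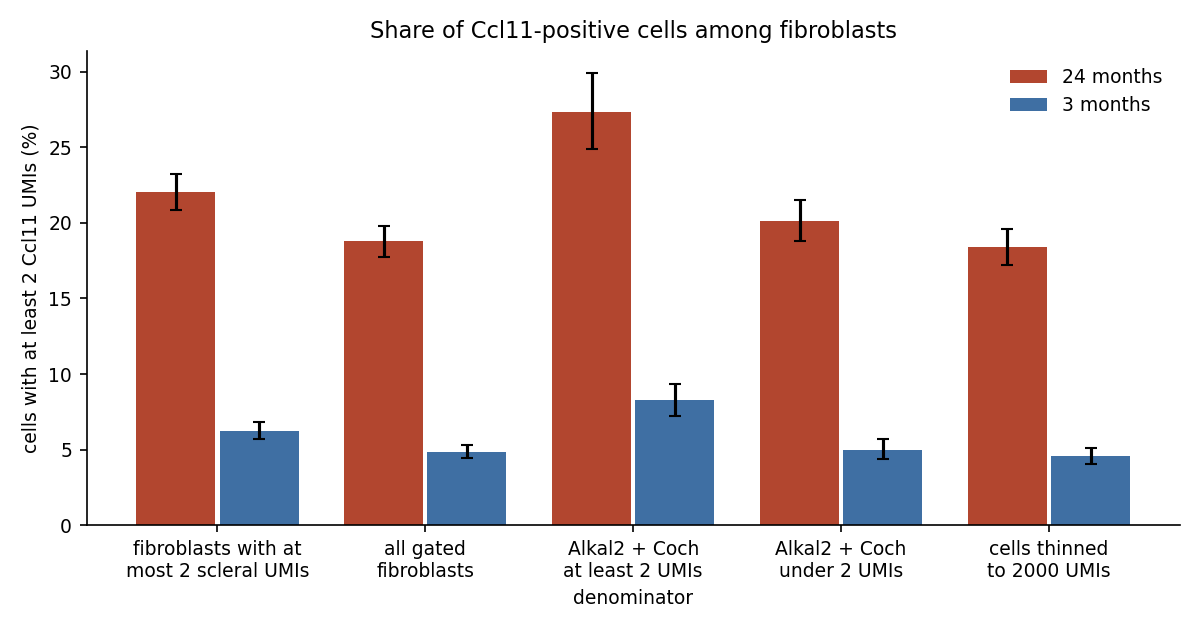
Share of cells with at least 2 Ccl11 UMIs, in percent, at 24 and 3 months for different denominators, with 95% exact binomial intervals and the thinned cells chosen by their full counts of scleral genes. The 24-month bars lie between 18.4% and 27.3% and the 3-month bars between 4.56% and 8.25%.

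The rule, which selects on Ccl11, took in most of the Ccl11 UMIs of the libraries. The cells were 6.91% of the cells at 24 months and 2.82% at 3 months, and held 79.3% of the 18763 Ccl11 UMIs at 24 months and 78.7% of the 6225 at 3 months. The median Ccl11-positive fibroblast had 8 Ccl11 UMIs at 24 months and 6 at 3 months, and the highest had 115 and 167. At the same threshold of 2 UMIs, the share in RPE cells was 2.02% (1.69 to 2.40) at 24 months and 0.507% (0.270 to 0.865) at 3 months. The median depths were 2531 and 4144 UMIs. The source of the Ccl11 RNA in RPE cells was not tested. None of 197 Cldn5 cells at 24 months had at least 2 Ccl11 UMIs, against 1 of 450 at 3 months. Of the Ptprc cells, 13 of 1457 at 24 months and 2 of 380 at 3 months had at least 2.

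The threshold cut a continuous range. The 168 Ccl11-positive fibroblasts with exactly 2 Ccl11 UMIs at 24 months had 1075 CPM of Ccl2 and 1412 CPM of Cxcl10, and the 286 fibroblasts with 1 UMI, just outside the rule, had 885 CPM of Ccl2 and 1195 CPM of Cxcl10. At 3 months the 90 cells with 2 UMIs had 761 CPM of Ccl2 and 1054 CPM of Cxcl10, and the 249 cells with 1 UMI had 567 and 952 CPM. At the limit on scleral genes, the 44 cells at 24 months with 2 scleral UMIs had 1692 CPM of Cxcl10, and the 22 cells with 3, just outside, had 456 CPM. At 3 months the order was the other way, with 166 CPM in the 27 cells with 2 scleral UMIs and 1260 CPM in the 5 cells with 3.

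Among the chemokines that neighbour Ccl11 in the genome, Ccl2 and Ccl7 were higher in Ccl11-positive than in Ccl11-zero fibroblasts. Ccl2 (ENSMUSG00000035385) stood at 2063 CPM in Ccl11-positive and 627 CPM in Ccl11-zero fibroblasts at 24 months, a log2 ratio of 1.72 (1.68 to 1.76). At 3 months it stood at 1152 CPM in Ccl11-positive and 280 CPM in Ccl11-zero fibroblasts, a log2 ratio of 2.04 (1.98 to 2.10). Ccl7 (ENSMUSG00000035373) had 1002 CPM in Ccl11-positive and 309 CPM in Ccl11-zero fibroblasts at 24 months, and 787 against 166 CPM at 3 months. Its log2 ratios were 1.70 (1.64 to 1.76) at 24 months and 2.25 (2.17 to 2.32) at 3 months.

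The other 3 chemokines of the group were scarce. Ccl8, a monocyte chemokine, stood at 22.6 CPM in Ccl11-positive and 9.77 CPM in Ccl11-zero fibroblasts at 24 months, and at 12.5 against 1.94 CPM at 3 months. Ccl12 gave 1 UMI in the Ccl11-positive fibroblasts at 24 months and 2 at 3 months. Ccl1 gave none, and 3 UMIs, used here as the limit for a count of 0 in place of an interval, would equal 0.647 CPM at 24 months and 1.25 CPM at 3 months.

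The levels of Ccl2 and Cxcl10 were highest in the fibroblasts richest in Ccl11. At 24 months Ccl2 stood at 627 CPM in fibroblasts with 0 Ccl11 UMIs, 1382 CPM at 3 to 4 UMIs, 2297 CPM at 10 to 19 UMIs and 3433 CPM at 20 or more. Cxcl10 stood at 1046, 1054, 1986 and 2888 CPM in the same groups. Serpina3n stood at 410, 244, 226 and 209.9 CPM, and C4b stayed between 116 and 180 CPM over all 7 groups at 24 months. The groups had similar median depths at 24 months, from 3865 to 4326 UMIs. At 3 months, the 69 cells with 20 or more Ccl11 UMIs had 2655 CPM of Ccl2 and 1970 CPM of Cxcl10. The Serpina3n level of 144 CPM in the 3-month group of 3 to 4 UMIs rested on few cells, since 1 Ccl11-positive fibroblast held 49 of the 133 Serpina3n UMIs at 3 months.

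**Figure D3:**
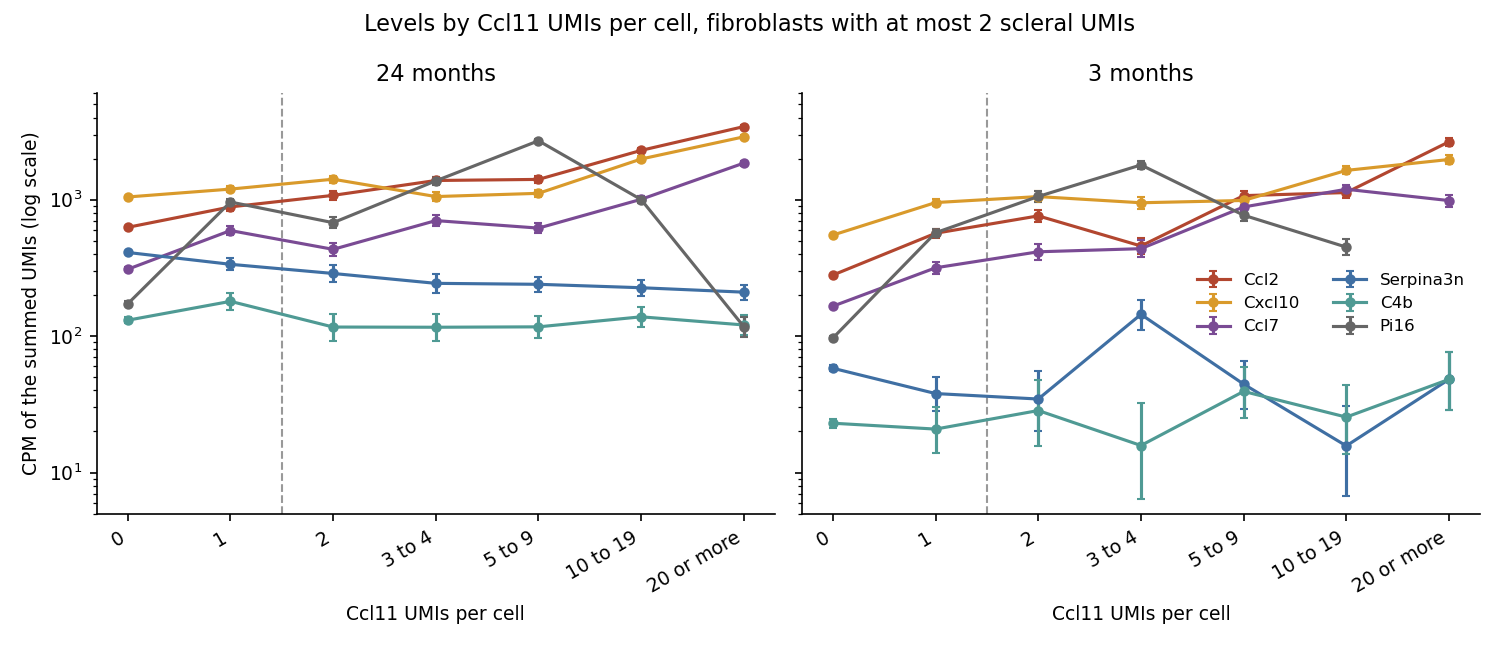
Levels of Ccl2, Cxcl10, Ccl7, Serpina3n, C4b and Pi16 in CPM on a log axis by the number of Ccl11 UMIs in the cell, for fibroblasts with at most 2 scleral UMIs at 24 months (left) and 3 months (right), with 95% counting intervals and a dashed line at the threshold of the rule. At 24 months Ccl2 reached 3433 CPM and Serpina3n 209.9 CPM at 20 or more Ccl11 UMIs; Pi16, at 0 UMIs in that group at 3 months, is not drawn there.

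Each of the 3 chemokines was detected in more of the Ccl11-positive fibroblasts. With every cell thinned to 2000 UMIs, Ccl2 was detected in 49.8% of Ccl11-positive and 24.5% of Ccl11-zero fibroblasts at 24 months, Ccl7 in 36.5% and 15.2%, and Cxcl10 in 51.4% and 36.0%. Ccl2, Ccl7 and Cxcl10 were all detected in 130 of 995 Ccl11-positive fibroblasts (13.1%) and 96 of 2917 Ccl11-zero fibroblasts (3.29%) at 24 months. At 3 months the shares were 4.87% (3.04 to 7.35) of Ccl11-positive and 0.721% (0.516 to 0.981) of Ccl11-zero fibroblasts. Whether the 3 met in 1 cell more often than their single shares give was not tested. None of the 3 was detected in 21.9% of Ccl11-positive and 45.6% of Ccl11-zero fibroblasts at 24 months, and in 35.7% and 67.2% at 3 months. Without thinning, Cxcl10 was found in 56.0% of Ccl11-positive and 36.9% of Ccl11-zero fibroblasts at 24 months, and in 6.93% of RPE cells. Serpina3n or C4b was detected in 43.1% (34.4 to 52.0) of the Ccl11-positive fibroblasts with all 3 chemokines and in 40.4% (33.8 to 47.2) of those with none at 24 months, a difference within the counting error.

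Beyond the chemokines, the Ccl11-positive fibroblasts differed from Ccl11-zero fibroblasts in few genes. Of 5491 genes found in at least 10% of the cells of either group in each library, 63 (1.15%) were past 1.5-fold higher in both libraries and 16 (0.291%) past 1.5-fold lower. At 24 months alone 97 of 5583 genes (1.74%) were higher and 55 (0.985%) lower, and at 3 months alone 164 of 6515 (2.52%) were higher and 79 (1.21%) lower. Since Ccl11 chose the cells, these values describe the groups. The median log2 ratio over all 5491 genes was -0.00057 at 24 months and -0.011 at 3 months.

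The 12 named higher genes were Ccl2, Ccl7 and 10 others. Pi16, a peptidase inhibitor that marks adventitial fibroblasts around vessels, had 1157 CPM in Ccl11-positive and 173 CPM in Ccl11-zero fibroblasts at 24 months, and 829.9 against 96.9 CPM at 3 months. It was found in 11.9% of Ccl11-positive and 7.97% of Ccl11-zero fibroblasts at 24 months, and in 12.4% and 13.1% at 3 months. In the cells with 20 or more Ccl11 UMIs, Pi16 stood at 117 CPM at 24 months and gave no UMI at 3 months. Clec3b (tetranectin) stood at 559.9 CPM in Ccl11-positive and 89.1 CPM in Ccl11-zero fibroblasts at 24 months, a log2 ratio of 2.65. Without the cells of at least 2 Pi16 UMIs, it stood at 38.3 against 23.9 CPM at 24 months. Its log2 ratios were then 0.68 at 24 months and 1.47 at 3 months, past 1.5-fold, but it was found in too few cells to be counted. Itih5, a hyaluronan-associated protein, had log2 ratios of 2.38 at 24 months and 2.08 at 3 months. Tcf21, a transcription factor of mesenchymal cells, had 283 CPM in Ccl11-positive and 121 CPM in Ccl11-zero fibroblasts at 24 months and log2 ratios of 1.22 and 1.32. Col15a1, a collagen beside basement membranes, had 90.1 against 42.4 CPM at 24 months and 228 against 54.6 CPM at 3 months. The other 5 were the dipeptidase Dpep1, the protease Htra3, Lrrc17, osteopontin (Spp1) and the proprotein convertase Pcsk6, with log2 ratios between 0.99 and 1.71.

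The 12 named lower genes were led by Chil1, a chitinase-like secreted protein, with 274 CPM in Ccl11-positive and 827 CPM in Ccl11-zero fibroblasts at 24 months and 108 against 296 CPM at 3 months. Its log2 ratios were -1.59 (-1.68 to -1.51) and -1.45 (-1.63 to -1.27). Gdf10, a growth factor of the TGF-beta family, had log2 ratios of -1.11 and -0.92. Tgfb3, a TGF-beta ligand, had -0.93 and -0.87. Nbl1, an antagonist of bone morphogenetic proteins, had -0.47 and -0.80, the first of which is within 1.5-fold. The other 8 were Clec11a, Cpxm2, Cpm, Map1b, Srgn, Clu, Tspan11 and Id1, with log2 ratios between -1.09 and -0.52, and 9 of the 12 were past 1.5-fold in both libraries.

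Few members of the inflammatory gene lists were past 1.5-fold between the groups, where over all genes 1.15% were higher and 0.291% lower. Of 30 interferon-stimulated genes measured, 2 were past 1.5-fold higher in Ccl11-positive fibroblasts in both libraries and none lower. These were Ifit1, an interferon-induced RNA-binding protein with 402 CPM in Ccl11-positive and 255 CPM in Ccl11-zero fibroblasts at 24 months, and the transcription factor Irf8, with log2 ratios of 0.68 and 0.84. The list had a median log2 ratio of 0.26 at 24 months and 0.34 at 3 months, the NF-kB list 0.19 and 0.36, and the other chemokines 0.15 and 0.59, beside medians over all genes of -0.00057 and -0.011. Of 16 targets of NF-kB, 1 was higher, the hyaluronan-binding protein Tnfaip6 (290.2 CPM in Ccl11-positive and 165 CPM in Ccl11-zero fibroblasts at 24 months). Without the cells of at least 2 Pi16 UMIs, the log2 ratios of Tnfaip6 were 0.54 at 24 months, within 1.5-fold, and 1.53 at 3 months. Those of Ifit1 were then 0.78 and 0.99, still past 1.5-fold. Of 12 acute phase genes, 1 was higher, the metalloreductase Steap4, with 56.7 against 32.3 CPM. None of 7 complement genes, 12 antigen presentation genes, 8 glucocorticoid response genes, 9 myofibroblast genes, 9 senescence genes and 6 other chemokines was past 1.5-fold in both libraries. The most abundant of these chemokines, the neutrophil chemokine Cxcl1, stood at 3402 CPM in Ccl11-positive and 2406 CPM in Ccl11-zero fibroblasts at 24 months and at 4438 against 2896 CPM at 3 months. Without the cells of at least 2 Pi16 UMIs, the chemokine Cxcl5 had log2 ratios of 1.14 at 24 months and 2.45 at 3 months. Those of the chemokine Cxcl9 were 1.19 and 1.72. Both were past 1.5-fold but found in too few cells to be counted.

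In the type 2 cytokine list, 1 of 7 measured genes was higher and 1 lower. Il33, an alarmin of type 2 immunity, had 88.0 CPM in Ccl11-positive and 48.6 CPM in Ccl11-zero fibroblasts at 24 months, and 97.3 against 34.5 CPM at 3 months. Without the cells of at least 2 Pi16 UMIs, the log2 ratios of Il33 were 0.51 at 24 months, within 1.5-fold, and 1.05 at 3 months. Chil1, given above, was the lower one. C3, complement component C3, is not in the complement count, since it was found in under 10% of the cells of both groups at 3 months. It stood at 175 CPM in Ccl11-positive and 88.3 CPM in Ccl11-zero fibroblasts at 24 months and at 57.8 against 15.7 CPM at 3 months.

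Of 9 measured adventitial fibroblast genes 4 were past 1.5-fold higher in Ccl11-positive fibroblasts in both libraries (1.15% over all genes), Pi16, Clec3b, Col15a1 and the surface protein Cd248. Without the cells of at least 2 Pi16 UMIs, Pi16, which chose those cells, was no longer past it. Clec3b was still past it but was found in too few cells to be counted. A small subset of the cells, found after the values had been seen, carried Pi16. With at least 2 UMIs of Pi16 and under 2 of Alkal2 and Coch, 98 cells (9.33%) at 24 months and 33 cells (7.47%) at 3 months formed it, against 3.07% and 5.83% of Ccl11-zero fibroblasts. Cd34, a surface protein of adventitial fibroblasts, stood at 1873 CPM at 24 months and 1366 CPM at 3 months, and C3 at 776 and 403 CPM. Cxcl10 was low in them, with 160 CPM at 24 months and 58.3 CPM at 3 months, and Ccl11 stood at 1176 and 851 CPM. Ccl11-zero fibroblasts with the same Pi16, Alkal2 and Coch limits had lower levels of Pi16, Cd34 and C3 in both libraries. In those, Pi16 stood at 4992 CPM at 24 months and 1231 CPM at 3 months, against 10280.5 and 8132 CPM in the Ccl11-positive subset. Cd34 stood at 984 CPM at 24 months and 413 CPM at 3 months, and C3 at 541 and 61.8 CPM. Cxcl10 stood at 91.0 and 195 CPM, lower than in the Ccl11-positive subset at 24 months and higher at 3 months.

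The other Ccl11-positive fibroblasts held most of the chemokine RNA. Those with at least 2 UMIs of Alkal2 and Coch and under 2 of Pi16, 32.8% at 24 months and 49.1% at 3 months, had 3415 CPM of Ccl11 and 2320 CPM of Cxcl10 at 24 months and 2322 and 1232 CPM at 3 months. Those with neither set of UMIs, 57.6% at 24 months and 41.2% at 3 months, had 3510 CPM of Ccl11 and 1801 CPM of Cxcl10 at 24 months and 2063 and 1747 CPM at 3 months. C3 was at most 117 CPM in these subsets. Only 3 cells at 24 months and 10 at 3 months had both sets of UMIs.

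**Figure D4:**
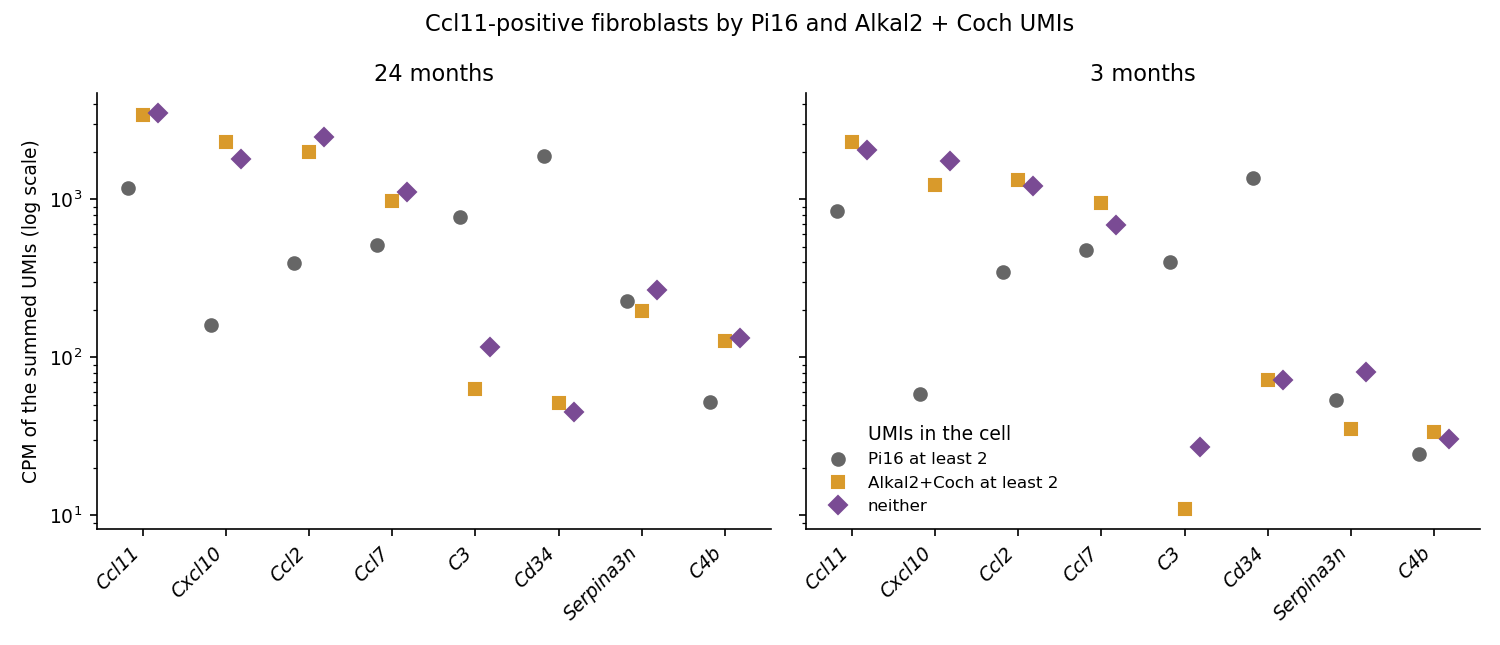
Levels in CPM on a log axis of 8 genes in Ccl11-positive fibroblasts, split by UMIs of Pi16 and of Alkal2 and Coch, at 24 months (left) and 3 months (right). The Pi16 subset had 160 CPM of Cxcl10 and 1873 CPM of Cd34 at 24 months, and the subset with Alkal2 and Coch 2320 and 51.6 CPM.

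Leaving out every cell with at least 2 Pi16 UMIs from both groups, an alternative chosen after seeing the data, gave 46 genes past 1.5-fold higher and 20 lower, of which 37 and 11 were among those of all cells. Of the named genes past 1.5-fold in all cells, 8 of 12 higher and 7 of 9 lower ones were still counted. The log2 ratios of Ccl2 were then 1.84 at 24 months and 2.13 at 3 months, those of Ccl7 1.77 and 2.31, and those of Cxcl10 0.90 and 1.34. Tcf21 had 1.35 and 1.34, Col15a1 1.21 and 2.06, and Chil1 -1.43 and -1.22. Clec3b had 0.68 and 1.47 and Itih5 had 2.08 and 2.24, past 1.5-fold, but both were then below the limit of 10% of cells and not counted. C3 had 0.38 (0.21 to 0.55) at 24 months and 0.52 (-0.0077 to 1.00) at 3 months. Ly6c1, a surface protein of adventitial fibroblasts, had 2.67 and 3.31 in all cells. Without those cells it had -1.57 (-2.83 to -0.52) at 24 months and -1.04 (-4.12 to 0.88) at 3 months. These rest on few UMIs, with 1.95 and 0.948 CPM in Ccl11-positive fibroblasts.

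The choroidal gene Coch, which encodes cochlin, was higher in Ccl11-positive fibroblasts, with 108 against 56.4 CPM in Ccl11-zero fibroblasts at 24 months and 165 against 62.0 CPM at 3 months. Alkal2, a ligand of the receptor kinases Alk and Ltk, was nearly level, with log2 ratios of 0.12 and 0.28. At least 2 UMIs of the pair were found in 33.0% of Ccl11-positive and 24.5% of Ccl11-zero fibroblasts at 24 months, and in 51.4% and 38.1% at 3 months. Of 18 immediate early and dissociation genes none was past 1.5-fold between these groups in both libraries.

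Between the ages, Serpina3n, C4b, Il1rn and Serpine3 were among the genes with the highest ratios in Ccl11-positive fibroblasts. Of 6536 genes measured, 244 (3.73%) were past 1.5-fold higher at 24 months and 332 (5.08%) past 1.5-fold lower. In Ccl11-zero fibroblasts 3.81% of 5979 genes were higher and 3.36% lower, and in RPE cells 0.867% of 7611 were higher and 1.21% lower. Genes were counted by the ratio alone, whose counting error is larger in groups with fewer UMIs. At 3 months the Ccl11-positive fibroblasts held 2403915 UMIs, the Ccl11-zero ones 29846566 and the RPE cells 27487622. Serpina3n stood at 237 CPM at 24 months and 55.3 CPM at 3 months in Ccl11-positive fibroblasts, a log2 ratio of 2.10 (1.84 to 2.37). Without the 1 cell that held 49 of its UMIs, the 3-month level was 35.0 CPM and the ratio 2.76 (2.44 to 3.10). In Ccl11-zero fibroblasts its ratio was 2.82 (2.74 to 2.90), in scleral-type cells 2.94 and in RPE cells 1.37.

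C4b stood at 122 CPM at 24 months and 31.2 CPM at 3 months, with a log2 ratio of 1.97 (1.62 to 2.34) in Ccl11-positive and 2.51 (2.38 to 2.64) in Ccl11-zero fibroblasts. The same order held for C3, with 1.59 (1.33 to 1.86) in Ccl11-positive and 2.49 (2.34 to 2.65) in Ccl11-zero fibroblasts, and for Il1rn, the antagonist of the interleukin-1 receptor, with 2.66 (2.12 to 3.25) and 4.52 (4.23 to 4.83). Without the cells of at least 2 Pi16 UMIs, the C3 ratio in Ccl11-positive fibroblasts was 2.41 (1.93 to 2.93). C3 then stood at 95.6 CPM at 24 months and 18.0 CPM at 3 months in them, and at 73.5 and 12.6 CPM in Ccl11-zero fibroblasts. Il1rn had 30 UMIs in the Ccl11-positive fibroblasts at 3 months, 12 of them in 1 cell, without which its ratio was 3.39 (2.71 to 4.16). Serpine3, a serpin, had 44.4 CPM at 24 months and 4.58 CPM at 3 months in Ccl11-positive fibroblasts, a log2 ratio of 3.28. It was also higher at 24 months in other cells, with log2 ratios of 2.92 in Ccl11-zero fibroblasts, 3.25 in scleral-type cells and 2.05 in RPE cells. In Ccl11-positive fibroblasts its ratio was the highest of the 12 named genes that were higher at 24 months. The others besides Serpina3n, C4b and Il1rn were Lyz2, Sult1c1, Ctss, Trib1, Metrnl, Tfpi2, Snhg11 and G530011O06Rik, with log2 ratios between 1.71 and 2.31.

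The chemokines differed less between the ages within the Ccl11-positive fibroblasts than within the Ccl11-zero ones. Ccl2 had a log2 ratio of 24 over 3 months of 0.84 (0.78 to 0.90) in Ccl11-positive and 1.16 (1.12 to 1.21) in Ccl11-zero fibroblasts. Ccl7 had 0.35 (0.27 to 0.43) and 0.90 (0.84 to 0.96), and Cxcl10 had 0.48 (0.42 to 0.54) and 0.93 (0.89 to 0.96). Ccl11 itself, whose threshold was the same at both ages, stood at 3207 CPM at 24 months and 2039 CPM at 3 months. In all gated fibroblasts the log2 ratio was 1.61 for Ccl2, 1.30 for Ccl7 and 1.11 for Cxcl10.

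Angptl1, Col15a1, Rgs5 and Igfbp3, grouped after their values were seen, were lower at 24 months in Ccl11-positive fibroblasts and closer to level in Ccl11-zero ones. Angptl1, a secreted angiopoietin-like protein, had 15.3 CPM at 24 months and 78.2 CPM at 3 months, with log2 ratios of -2.35 (-2.77 to -1.95) in Ccl11-positive and -0.85 (-1.11 to -0.60) in Ccl11-zero fibroblasts. Col15a1 had -1.34 (-1.52 to -1.15) and -0.37 (-0.51 to -0.23). The pericyte gene Rgs5 had -1.30 (-1.54 to -1.07) and -0.045 (-0.12 to 0.029), and Igfbp3, which binds insulin-like growth factors, had -1.29 (-1.81 to -0.76) and 0.14 (-0.014 to 0.29). In Ccl11-positive fibroblasts 1 cell held 65 of the 349 Rgs5 UMIs at 3 months and 1 cell 46 of 273 at 24 months. Without the first the ratio was -1.01, and without the second -1.57. Igfbp3 had 57 UMIs at 24 months and 72 at 3 months. Its ratio was -1.56 without its highest cell at 24 months and -1.12 without that at 3 months. Of 5 measured mural genes, Rgs5 and Notch3 were past 1.5-fold lower, and the list of 7, all of them detected, summed to 326 CPM in Ccl11-positive fibroblasts at 24 months and 466 CPM at 3 months, and to 465 and 513 CPM in Ccl11-zero fibroblasts. The part of mural RNA in these ratios was not tested. Aldh1a2, which makes retinoic acid, was lower in both, with -1.34 and -1.31. The differences between the ratios of Ccl11-positive and Ccl11-zero fibroblasts, those of the chemokines and complement genes included, were not tested.

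**Figure D5:**
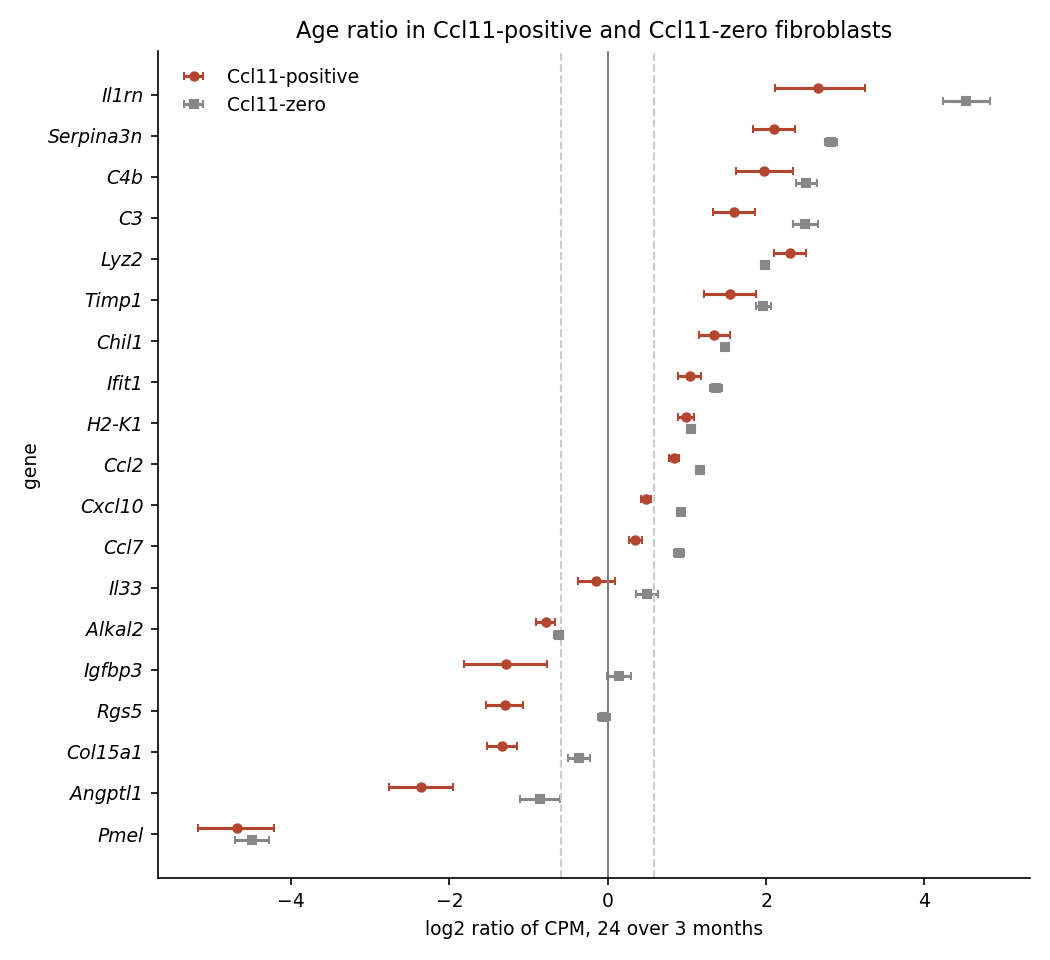
Log2 ratio of CPM at 24 over 3 months for 19 genes in Ccl11-positive fibroblasts (circles) and Ccl11-zero fibroblasts (squares), with 95% counting intervals, a solid line at 0 and dashed lines at 1.5-fold. Serpina3n had 2.10 in Ccl11-positive and 2.82 in Ccl11-zero fibroblasts, and Col15a1 had -1.34 and -0.37.

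By list, beside 3.73% higher and 5.08% lower over all genes, 4 of 31 interferon-stimulated genes were past 1.5-fold higher at 24 months in Ccl11-positive fibroblasts and none lower, among them Ifit1 (402 CPM at 24 months and 196 CPM at 3 months) and Isg15 (549 and 338 CPM). Bst2, an interferon-induced membrane protein that tethers virus particles, stood at 191 CPM (178 to 204) at 24 months and 151 CPM (135 to 167) at 3 months. Of 13 antigen presentation genes 2 were higher, the class I genes H2-K1 (742 and 374 CPM) and H2-D1 (1112 and 639.8 CPM). Of 9 complement genes 3 were higher, C3, Cfb and Clu, and of 12 acute phase genes 4, Steap4, Osmr, Timp1 and Bcl3. Of 8 glucocorticoid response genes 3 were higher, Fkbp5 and the metallothioneins Mt1 and Mt2. Among 10 adventitial genes 5 were higher, among them the surface protein Ly6a (998.8 and 488 CPM), and Col15a1 was lower. Both choroidal genes were lower, Alkal2 with 254 CPM at 24 months and 438 CPM at 3 months and Coch with 108 and 165 CPM. Of 10 senescence genes none was higher and 1, the stress cytokine Gdf15, was lower, with 22.6 CPM at 24 months and 41.2 CPM at 3 months.

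Markers of other cell types also differed between the libraries, in fibroblasts and in RPE cells. All 4 melanocyte genes (Pmel, Mlana, Tyrp1 and Dct, which RPE cells also use) were past 1.5-fold lower at 24 months, and their sum was 81.9 CPM at 24 months and 796 CPM at 3 months in Ccl11-positive fibroblasts. In RPE cells the sum was 451 CPM at 24 months and 1344 CPM at 3 months. The other 8 of the 12 named genes that were lower at 24 months were Ednrb, Mlph, Trpm1, Wdfy1, Angptl1, Rtl3, Cox4i2 and Cdh6, of which Ednrb, Mlph and Trpm1 are known from pigment cells. Of 6 measured macrophage genes 5 were higher, and the list of 9, all of them detected, summed to 773 CPM at 24 months and 220.1 CPM at 3 months in Ccl11-positive fibroblasts. Lyz2, the macrophage lysozyme, had a log2 ratio of 2.30 in Ccl11-positive fibroblasts, 1.99 in Ccl11-zero fibroblasts and 2.24 in RPE cells. The 6 RPE genes summed to 7239 CPM in Ccl11-positive fibroblasts at 24 months and 3809 CPM at 3 months. The part of RNA from other cells in the age ratios was not tested.

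Of the 18 immediate early and dissociation genes 8 were lower at 24 months in Ccl11-positive fibroblasts, among them Fos, Jun and the heat shock gene Hspa1b (76.5 CPM at 24 months and 226 CPM at 3 months). The list summed to 52067 CPM at 24 months and 72332 CPM at 3 months in Ccl11-positive fibroblasts, and to 53544 and 73615 CPM in Ccl11-zero fibroblasts. Its part in the age ratios of the chemokines was not tested.

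The receptors of the chemokines were looked up in the same libraries. Ccr3, the receptor of Ccl11, gave 4 UMIs in 3 of 15198 cells at 24 months and 1 UMI in 15667 cells at 3 months, all in cells with Ptprc, the leukocyte gene. The 8 eosinophil and mast cell genes summed to 8.19 CPM in Ccl11-positive fibroblasts at 24 months and 14.1 CPM at 3 months. In Ptprc cells they summed to 54.5 CPM at 24 months and 9.26 CPM at 3 months, with no UMI of Epx or Prg3. Ccr3 gave no UMI in the Ccl11-positive fibroblasts, where the limit of 3 UMIs equals 0.647 CPM at 24 months and 1.25 CPM at 3 months. Ccr2, the receptor of Ccl2 and Ccl7, was found in 22.6% of 1457 Ptprc cells at 24 months and 32.9% of 380 at 3 months. Cxcr3, the receptor of Cxcl10, was found in 22.7% of Ptprc cells at 24 months and 8.95% at 3 months, at median depths of 3379 and 5334 UMIs. RPE cells, for which no limit on Ptprc was set, had Cxcr3 in 0.572% of cells at 24 months and in none of 2564 at 3 months.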

How the data were processed

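The 2 mouse scRNA-seq libraries were used. They were made with a 10x 5′ kit. Per the submitters' notes the authors ran Cell Ranger 6.0.1 on the mm10 genome, and the deposited values are UMI counts per gene and barcode with no normalization. The deposited TPM tables of bulk ARPE-19 cells and bulk mouse tissue hold no single cells and were not used here. The members, gene lists and comparisons were chosen with earlier results of these data known. UMIs were summed over the cells of a group and scaled to CPM, with exact 95% Poisson intervals. Ratios of CPM have exact conditional intervals, shares exact binomial (Clopper-Pearson) intervals and ratios of shares score intervals. UMI counts per cell limit what can be detected: a median of 4149.5 in the Ccl11-positive fibroblasts at 24 months and 5176.5 at 3 months.

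A gene was measured when found in at least 10% of the cells of either group, and counted when past 1.5-fold. Genes of the rule were left out. Named genes are the 12 highest and 12 lowest by the interval bound nearest to 0, for each contrast, the 4 list members with the largest change among those in at least 5% of cells, the marker genes and the chemokines next to Ccl11. Others named were chosen after their values were seen. Doublets were scored with Scrublet in scanpy 1.11.5 at an expected rate of 0.08. Its automatic threshold marked 0.00638% of the 3-month cells, so the threshold of the 24-month library was used in both. Python 3.11.15, numpy 2.4.6, scipy 1.17.1, pandas 2.3.3 and statsmodels 0.14.6 were used, and the contrasts were tested on simulated data. Alternatives were the removal of doublets, thinning, other limits on Ccl11, hemoglobin, mitochondrial UMIs and the share of cells, equal weight per cell and another comparison group.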

Additional observations from a re-analysis of the deposited data

How the results depend on the processing

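No paired analysis was possible because each age has 1 library, and for the same reason no replicate could be left out and no result has a test. The ratio of the shares of Ccl11-positive cells, 3.52, was 4.41 in cells thinned to 2000 UMIs with the limit on scleral genes applied to the thinned counts, 4.04 with that limit on the full counts (chosen after seeing the data) and 2.86 with at least 1 Ccl11 UMI, and between 3.36 and 3.71 under the 5 other alternatives. The 79 genes past 1.5-fold between Ccl11-positive and Ccl11-zero fibroblasts were 42 with thinning, 40 when genes had to be found in 20% of cells and 495 with no filter on the share of cells, and the 576 genes past 1.5-fold between the ages were 335, 244 and 2024. With thinning or the stricter filter fewer genes were measured. The other alternatives gave 66 to 94 and 568 to 661 genes. Of 1127 values of named genes under the alternatives, 994 stayed within their counting interval, 125 moved beyond it and 8 changed sign. At 3 months the log2 ratio of Ccl11-positive over Ccl11-zero was 0.086 for Mlana without doublets, and for Dct 0.17 without doublets and 0.11 with thinning. Without cells of at least 2 Pi16 UMIs that of Pi16, which chose those cells, was -1.11 at 24 months and -1.45 at 3 months. The log2 ratio of 24 over 3 months was -0.092 for Itih5 with thinning, and without the Pi16 cells -0.69 for Itih5 and -0.47 for Clec3b. Other causes were not tested. Depth limits the rare genes: 3 UMIs in the Ccl11-positive fibroblasts at 3 months equal 1.25 CPM.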

Other observations

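Some Ccl11 RNA lay outside the rule. The 89 fibroblasts with at least 2 Ccl11 UMIs and at least 3 scleral UMIs, 55 at 24 months and 34 at 3 months, had 1145 CPM of Ccl11 at 24 months and 809 CPM at 3 months. They made up 6.60% of the scleral cells at 24 months and 1.68% at 3 months. Ccl2 stood at 1902 CPM in them at 24 months, against 480 CPM in scleral-type cells with at most 1 Ccl11 UMI, and at 714 against 159 CPM at 3 months. Their Cxcl10 level was 289 CPM at 24 months, against 255 CPM in the other scleral-type cells, and 440 against 156 CPM at 3 months. RPE cells held 6.18% of all Ccl11 UMIs at 24 months and 2.44% at 3 months. A further 9.67% at 24 months and 9.69% at 3 months lay in cells that met none of the gates used here.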
